A study of Homo sapiens with 6 samples.

Results

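Genes of the kinetochore, the spindle checkpoint and cytokinesis were examined in RNA-seq counts labelled as human MDA-MB-231 cells with and without knockdown of the lncRNA LINC00115. The gene symbols of the count table are in the style of mouse genes, so the name of the cells rests on the labels. The 41 genes are a list of names, chosen for what their proteins do but with earlier results of these data known. Each was found under exactly its listed symbol among the 22989 genes of the count table. The MDA-MB-231 line was established from a human breast cancer of the triple-negative type. Its paclitaxel (PTX)-resistant derivative was sorted for high aldehyde dehydrogenase activity (ALDH+) to give breast cancer stem-like cells (BCSC), and all 6 libraries carry this description. The 3 KD libraries (sh115-1, sh115-2 and sh115-3) have the genotype LINC00115 knockdown, made with a short hairpin RNA, and the 3 control libraries (wt_1, wt_2 and wt_3) have the genotype WT. The paper names a control hairpin, shC, in other experiments, and whether the WT libraries carry it is not given in the sources used here. For its plot of differential expression in these KD cells the paper names the hairpin sh115-2. It also uses sh115-1 and sh115-2 as names of different hairpins, and the labels give no hairpin for each library. Nothing says that the libraries of a group came from separate cultures, so p-values measure only the spread between these libraries, which may be technical.

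At mitosis each chromosome is held by its centromere, where nucleosomes with the histone variant Cenpa carry an inner kinetochore, and an outer kinetochore grips the microtubules of the spindle. The spindle checkpoint holds back the anaphase-promoting complex until every kinetochore is attached. Separase then cuts the cohesin rings between sister chromatids, and a contractile ring divides the cell. The genes of this machinery are transcribed mainly in the late phases of the cell cycle, and taxanes such as paclitaxel act by stabilizing the microtubules that the machinery works on. Many promoters of this class carry a cell cycle homology region, often with the letters TTTGAA, and CCAAT boxes.

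Promoter sequences are shown for the 3 members called lower, for Mki67, which fell less, and for Anln, which did not pass the test, so that members that differed in their change can be read side by side. The symbols of the count table are those of mouse genes, so these human promoters need not be the promoters of the genes counted. Letters and changes read side by side may thus be of different species. The sequences are human, taken from RefSeq (GRCh38.p14), matched to the listed symbols apart from case, from 130 bases before the transcription start to 20 bases after it, on the strand of the gene. Capitals mark TTTGAA and CCAAT on either strand, so that TTCAAA and ATTGG are their reverse complements. BUB1 lies at chr2:110678044-110678193 on the minus strand, NDC80 at chr18:2571427-2571576 on the plus strand, NUSAP1 at chr15:41332751-41332900 on the plus strand, MKI67 at chr10:128126404-128126553 on the minus strand and ANLN at chr7:36389732-36389881 on the plus strand.
BUB1: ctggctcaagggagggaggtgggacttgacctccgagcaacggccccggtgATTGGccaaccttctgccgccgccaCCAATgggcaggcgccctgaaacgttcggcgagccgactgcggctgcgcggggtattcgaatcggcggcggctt
NDC80: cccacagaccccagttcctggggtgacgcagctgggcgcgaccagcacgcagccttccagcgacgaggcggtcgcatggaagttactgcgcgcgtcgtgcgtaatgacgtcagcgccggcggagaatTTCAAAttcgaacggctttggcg
NUSAP1: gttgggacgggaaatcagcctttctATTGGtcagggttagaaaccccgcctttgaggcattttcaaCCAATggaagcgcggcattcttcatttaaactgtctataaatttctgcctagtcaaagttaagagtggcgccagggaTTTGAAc
MKI67: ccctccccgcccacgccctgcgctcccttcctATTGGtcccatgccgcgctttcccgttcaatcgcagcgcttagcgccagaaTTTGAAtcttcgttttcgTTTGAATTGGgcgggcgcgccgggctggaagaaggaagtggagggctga
ANLN: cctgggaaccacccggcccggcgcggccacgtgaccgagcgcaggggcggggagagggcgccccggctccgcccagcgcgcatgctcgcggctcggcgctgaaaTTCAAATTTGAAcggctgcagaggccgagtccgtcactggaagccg

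Counting the start of transcription as position 1, TTTGAA began at −47 and −29 in MKI67, at −26 and −20 in ANLN, at −3 in NDC80 and at 14 in NUSAP1, and was not in the printed window of BUB1, which held CCAAT at −79 and −54. In MKI67 a TTTGAA and a CCAAT on the other strand share 1 base. Only the exact letters were searched. Near matches, such as the ttcgaa that can be read in BUB1 and NDC80, were not counted, so a window without TTTGAA may still hold such a region. RefSeq windows from 250 bases before to 50 bases after the start were matched for 32 of the 41 members. Of these, 22 (68.8%) held TTTGAA and 23 (71.9%) held CCAAT, where 15.2% and 34.6% of all 35116 windows of this length did and, counted by gene as for the members, 18.2% and 39.7% of 27305 genes. TTTGAA was in 17 of 26 members lower in the KD libraries and in 5 of 6 others, namely Anln, Cdca8, Cenpn, Ect2 and Zw10. These matches are descriptions of letters in a human reference and were not tested as sites. No window was matched for Bub3, Ttk, Aurka, Cenph, Cenpl, Cenpm, Birc5, Tpx2 or Racgap1.

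The gene symbols of the table are in the style of mouse genes, 4650 of them Gm names and 1129 Rik names, although the labels give the organism as human. The gene names and the labels thus disagree on the species, and the name MDA-MB-231 rests on the labels. Gm and Rik names belong to mouse gene annotation, so the genes were named from such an annotation. Whether the cells or the reads were of another species was not settled. No positions in the authors' build are given for the members because the table pairs none with them. The table has 0 genes named LINC00115, so the knockdown could not be checked and every direction rests on the group labels. Library totals lay between 36979221 and 38799331 counts, and replicates had a biological coefficient of variation of 5.21%. Of 14 genes listed as high in MDA-MB-231, 13 were over 3 counts in every library and Krt19 was not. In 8 of the 14 every KD library lay above every control library and in 3, among them Krt19, below. Groups did not overlap in 37.8% of all genes tested on the higher side and in 37.8% on the lower side. CPM here are counts for each 1e+06 of a library's TMM-scaled total. A level over 3 counts is a low bar, near 0.08 CPM, and does not show that a gene is high. Vim was at a mean of 3418 CPM in the control and 3736 in the KD libraries, Krt18 was 1.83-fold higher, and S100a4 was called lower, from 785 to 341. Egfr, also listed as high, was at only 5.75 CPM in the control and 9.31 in the KD libraries. Of 8 genes listed as low or absent in this line, 4 were higher in every KD library and 1 was lower. Gata3, although listed as low or absent, was at 95.8 CPM in the control libraries, and fell to 53.2 in the KD libraries. Erbb2 was 1.62-fold higher (17.0 to 27.6 CPM), Esr1 3.66-fold higher (0.698 to 2.56) and Cdh1 13.1-fold higher from a level near 0 (0.0530 to 0.734). Of 5 ALDH isozymes, the enzymes whose activity the sort used, the 3 that were over 3 counts in every library were higher in the KD libraries, Aldh1a1 by 3.53-fold (0.327 to 1.16 CPM), Aldh3a1 by 1.51-fold and Aldh2 by 1.09-fold, and Aldh1a2 and Aldh1a3 were at 0.0351 CPM or less in the mean of either group.

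All 41 members passed the low-count filter, with between 269 and 48310 counts in a library. Together they took between 0.731% and 0.736% of the counts of the control libraries and between 0.553% and 0.568% of those of the KD libraries, so the groups did not overlap. In edgeR's quasi-likelihood test across all 13497 genes tested, 33 of the 41 members (80.5%) were lower in the KD libraries at an adjusted p-value under 0.05 and 2 were higher, where 36.7% of all genes were lower and 36.7% higher (73.4% in either direction). The median log2 fold change of the members was −0.44, that of all genes tested −0.01, and most changes were small. A gene is called here where it had both an adjusted p under 0.05 and a change of more than 2-fold. By this rule 3 members, Bub1, Ndc80 and Nusap1, were called lower and 1, Cenpm, was called higher. Among all genes 9.98% were called lower and 10.2% higher, so 3 of 41 members called lower was a share near the background and 1 of 41 called higher was a share below it, while the share of members that were lower at any size was above it. Against a fold change of 1.2 in place of no change, 23 members were lower and 2 higher. In bulk libraries, fewer cells in mitosis and less RNA of these genes per cell cannot be told apart.

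**Figure D1:**
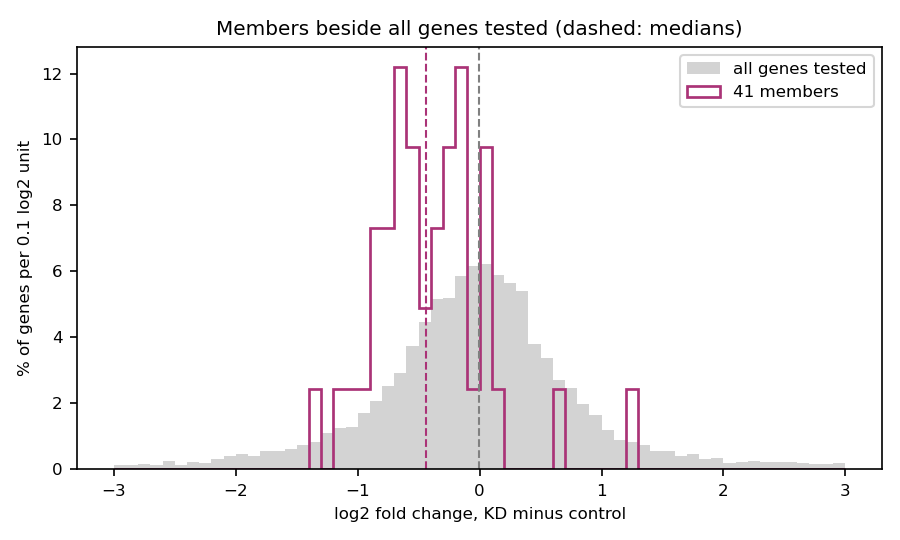
Distribution of log2 fold changes, KD minus control, as a percentage of genes per 0.1 log2 unit on the vertical axis, for all 13497 genes tested (grey) and the 41 members (outline); 445 genes beyond 3 log2 units are not drawn. The medians (dashed) are −0.01 and −0.44, and the members sit mostly between −1.34 and 0.

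In 33 members every KD library was below every control library, and these were the 33 members that were lower in the test. In 4 members (Bub3, Zw10, Cenpi and Cenpm) every KD library was above every control library, and in the other 4 (Cenpn, Cdca8, Ect2 and Anln) the groups overlapped. Groups did not overlap in 37.8% of all genes tested on the lower side and in 37.8% on the higher side.

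**Figure D2:**
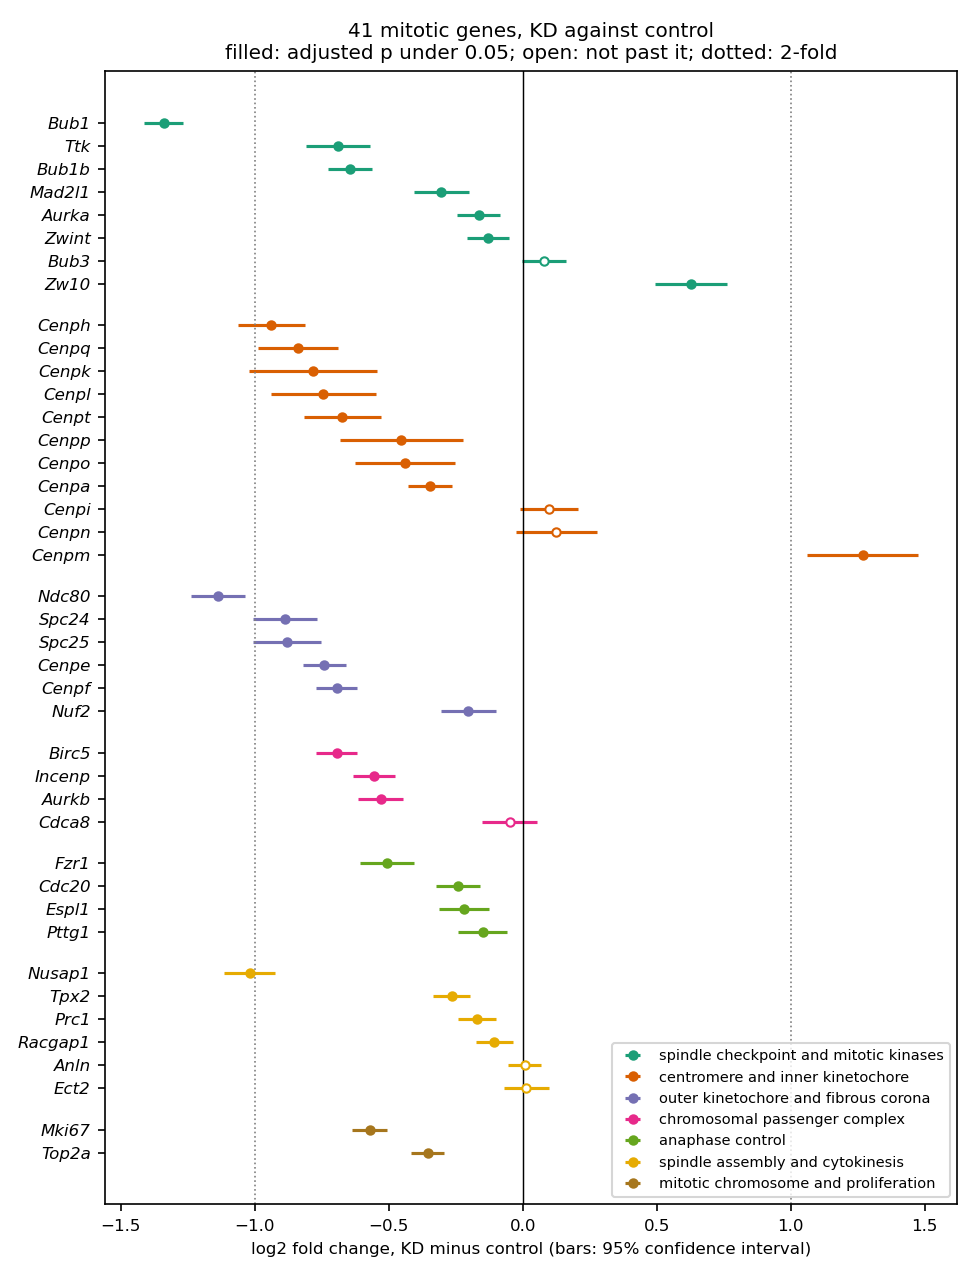
Log2 fold change of each member, KD minus control, by role, with its 95% confidence interval from the quasi-likelihood test (3 libraries each); filled points have an adjusted p under 0.05 and dotted lines mark 2-fold. Bub1, Ndc80 and Nusap1 lie left of the left line, Cenpm lies right of the right line, and 6 points are open.

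Of 8 genes of the spindle checkpoint and mitotic kinases, 6 were lower and 1 was higher. Bub1, a kinase that recruits checkpoint proteins to kinetochores, was at 315, 310 and 311 normalized CPM in the control libraries and at 122, 125 and 123 in the KD libraries. All KD libraries lay far below all control libraries, at 39.5% of the control level (log2 fold change −1.34, 95% confidence interval −1.41 to −1.27, adjusted p = 6.84e-27), the largest fall of any member. Bub1b, the related pseudokinase BubR1 of the mitotic checkpoint complex, went from 202 ± 7.55 to 129 ± 5.70 (SD, n = 3 each), which was 63.9% of the control level. Ttk, the kinase Mps1 that starts checkpoint signaling, went to 62.0%, and Mad2l1, the Mad2 protein that binds Cdc20, to 81.0%. Smaller falls were those of Aurka, the centrosomal Aurora kinase (89.2%, adjusted p = 0.000390), and Zwint, a kinetochore adaptor (91.4%, adjusted p = 0.00339). Without KD replicate 1 the fall of Zwint did not pass the test (adjusted p = 0.0789). Zw10, a subunit of the RZZ complex that brings dynein to kinetochores, went the other way, from 28.6, 35.4 and 33.2 in the control libraries to 50.1, 50.6 and 49.4 in the KD libraries. Its KD libraries all lay above its control libraries (log2 fold change 0.63, interval 0.49 to 0.76, adjusted p = 2.23e-10). Bub3, which loads Bub1 and Bub1b onto kinetochores, had 138 ± 6.41 and 146 ± 0.714 (SD, n = 3 each; log2 fold change 0.08, adjusted p = 0.0795), but passed the test without control replicate 2 (log2 fold change 0.11, adjusted p = 0.0270).

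Of 11 genes of the centromere and inner kinetochore, 8 were lower and 1 was higher. Cenpa, the histone that marks the centromere, was at 138, 143 and 138 in the control libraries and at 112, 110 and 107 in the KD libraries, 78.7% of the control level (adjusted p = 2.16e-09). The genes of the CENP-H/I/K/M subcomplex, neighbouring subunits of the inner kinetochore, went in different directions. Cenph was at 53.2, 49.9 and 53.6 in the control libraries and at 26.6, 27.0 and 28.1 in the KD libraries, the largest fall of this role (log2 fold change −0.94, interval −1.06 to −0.81, adjusted p = 1.24e-15). Cenpk fell to 58.1% of the control level on lower counts, from 14.4 ± 2.01 to 8.37 ± 1.08 (SD, n = 3 each). Cenpi had 54.2 ± 1.96 and 58.1 ± 1.84 (log2 fold change 0.10, interval −0.01 to 0.21, adjusted p = 0.0906). Cenpm rose from 7.33, 8.56 and 8.55 to 18.4, 21.1 and 19.4, the largest change upward of any member (log2 fold change 1.27, interval 1.06 to 1.48, adjusted p = 2.81e-13). Every KD library had more than every control library, on 276 to 323 counts in the control libraries and 711 to 776 in the KD libraries.

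The other inner kinetochore genes followed the majority except for Cenpn. In the CENP-L/N pair, which reads the centromeric nucleosome, Cenpl fell to 59.7% of the control level (adjusted p = 2.33e-08), while Cenpn had 26.4 ± 2.08 and 28.8 ± 1.65 with overlapping groups (log2 fold change 0.13, interval −0.03 to 0.28, adjusted p = 0.126). Of the genes of the CENP-O/P/Q group, Cenpq fell most, to 55.9% of the control level (adjusted p = 3.15e-12), and Cenpo and Cenpp fell to 73.8% and 73.1%. Cenpp was lowest in KD replicate 2, at 8.01 against 10.1 and 10.2 in the other KD libraries. Cenpt, which links the inner kinetochore to the Ndc80 complex, fell from 35.5 ± 1.2 to 22.2 ± 1.31 (SD, n = 3 each), 62.7% of the control level.

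All 6 genes of the outer kinetochore and fibrous corona were lower, with a median log2 fold change of −0.81, the lowest of the 7 roles, a ranking that was not tested. Ndc80, the Hec1 subunit that binds microtubules, was at 90.1, 92.9 and 89.4 in the control libraries and at 41.4, 41.1 and 41.5 in the KD libraries. The KD libraries sat close together at 45.5% of the control level (log2 fold change −1.14, interval −1.24 to −1.04, adjusted p = 1.43e-20). Spc24 and Spc25, the pair that anchors the Ndc80 complex to the kinetochore, fell to 54.0% and 54.3%. Nuf2, the direct partner of Ndc80 at the microtubule end, fell only to 86.8%, from 76.6 ± 3.21 to 66.5 ± 3.13 (SD, n = 3 each; adjusted p = 0.000531). Cenpe, a kinesin that carries chromosomes to the spindle equator, and Cenpf, a large corona protein, fell to 59.9% and 61.8%.

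Of the 4 genes of the chromosomal passenger complex, which corrects faulty attachments and later moves to the midzone, 3 were lower. Birc5 (survivin) was at 202, 205 and 205 in the control libraries and at 123, 128 and 127 in the KD libraries, 61.8% of the control level (log2 fold change −0.69, adjusted p = 5.77e-18). Incenp, the scaffold of the complex, fell to 68.0% and Aurkb, its kinase, to 69.2%. Cdca8 (borealin), the remaining subunit, had 89.7 ± 7.02 and 86.7 ± 3.54 (SD, n = 3 each; log2 fold change −0.05, interval −0.15 to 0.05, adjusted p = 0.396). Control replicate 1 was its lowest library, at 81.9, and without it the fall of Cdca8 passed the test (log2 fold change −0.11, adjusted p = 0.0377).

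All 4 genes of anaphase control were lower, by small amounts. Fzr1, the activator that keeps the anaphase-promoting complex at work in late mitosis and G1, fell most, from 89.3, 88.0 and 81.5 in the control libraries to 57.9, 61.7 and 62.7 in the KD libraries. This was 70.4% of the control level (log2 fold change −0.51, adjusted p = 5.39e-11) with no overlap. Cdc20, the activator of metaphase that the checkpoint holds back, fell to 84.6%. Espl1 (separase) fell to 85.9% and Pttg1 (securin, its inhibitor) to 90.2%, and the latter did not pass the test without control replicate 3 (adjusted p = 0.0526).

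Of 6 genes of spindle assembly and cytokinesis, 4 were lower. Nusap1, which bundles spindle microtubules near chromosomes, was at 148, 132 and 139 in the control libraries and at 68.3, 71.0 and 68.1 in the KD libraries, 49.3% of the control level (log2 fold change −1.02, interval −1.11 to −0.93, adjusted p = 3.46e-20). It lies at the edge of 2-fold, and without control replicate 1 its log2 fold change was −0.98. The others changed much less. Tpx2, which activates Aurka and nucleates microtubules around chromosomes, fell to 83.2%, Prc1, which crosslinks the midzone, to 88.8%, and Racgap1, a subunit of centralspindlin, to 93.0% (adjusted p = 0.00528). Anln (anillin, the scaffold of the contractile ring) and Ect2 (the exchange factor that activates RhoA there) had log2 fold changes of 0.01 (interval −0.06 to 0.07, adjusted p = 0.847) and 0.01 (interval −0.07 to 0.10, adjusted p = 0.773), whose sign turned with upper quartile scaling (−0.03 and −0.03) and with library size alone (−0.01 and −0.01). Anln lay between 684 and 719 normalized CPM in all 6 libraries and Ect2 between 124 and 134.

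Both genes of the mitotic chromosome and proliferation were lower. Mki67, which encodes the proliferation antigen Ki-67 that coats mitotic chromosomes, was at 775, 786 and 741 in the control libraries and at 504, 533 and 512 in the KD libraries. This was 67.3% of the control level (log2 fold change −0.57, interval −0.64 to −0.51, adjusted p = 2.35e-17). Top2a, the topoisomerase that untangles sister chromatids, was at 1204, 1261 and 1279 in the control libraries and at 958, 995 and 977 in the KD libraries, 78.3% of the control level. Neither gene's groups overlapped.

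**Figure D3:**
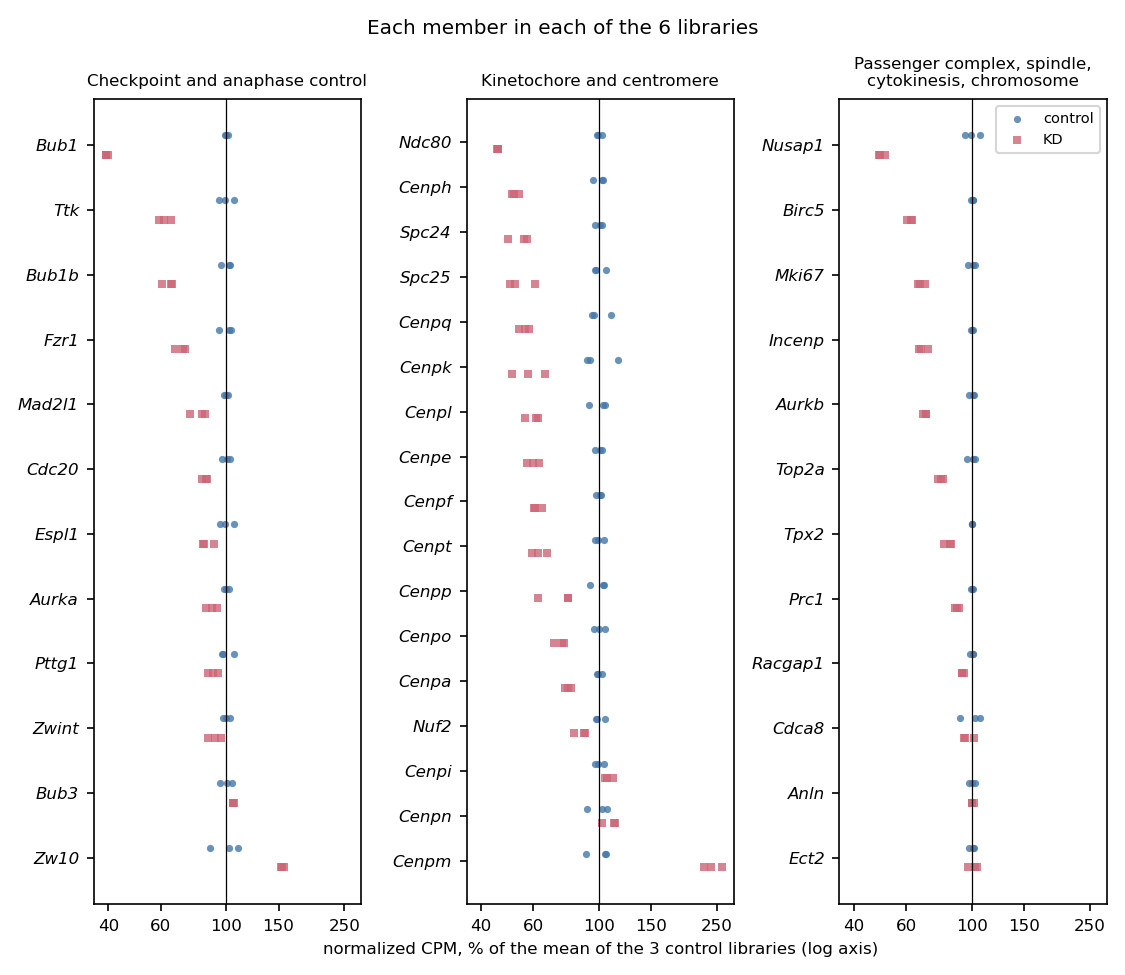
Normalized CPM of each member in each library, as a percentage of the mean of its 3 control libraries (log axis); circles are control libraries and squares KD libraries. The KD squares of Bub1 lie near 39.5%, those of Cenpm above 200%, and the squares of Anln and Ect2 lie among the circles.

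Genes whose proteins work side by side had unequal fold changes. To compare such changes without any scaling between libraries, the ratio of counts was taken within each library for 9 pairs of members, pairs chosen after the values were seen. Ndc80 had 1.2, 1.16 and 1.2 counts for each count of Nuf2 in the control libraries and 0.658, 0.603 and 0.605 in the KD libraries, a ratio 0.524 times that of the controls. The count ratio of Bub1 to Bub1b changed 0.618-fold, of Birc5 to Cdca8 0.638-fold, of Nusap1 to Prc1 0.556-fold, of Aurkb to Aurka 0.777-fold and of Fzr1 to Cdc20 0.832-fold. Cenpm had 0.138, 0.171 and 0.159 counts for each count of Cenph in the control libraries and 0.690, 0.781 and 0.689 in the KD libraries, which was 4.63-fold higher. Top2a was 1.16-fold higher relative to Mki67, with every KD library above every control library. Spc25 had 1.03, 1.01 and 0.957 counts for each count of Spc24 in the control libraries and 1.06, 1.06 and 0.900 in the KD libraries, with overlapping groups. Since the pairs were picked for these differences, or for the lack of one, the ratios are a description and no test is given.

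**Figure D4:**
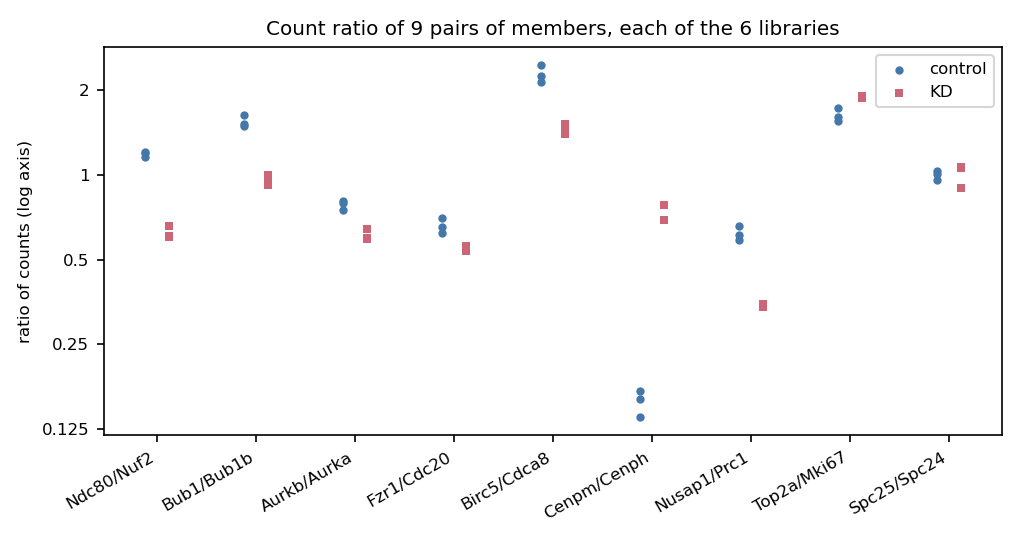
Ratio of counts of 9 pairs of members (log axis), with 3 control libraries (circles) and 3 KD libraries (squares) for each pair. The pairs were chosen after the values were seen. The squares lie farthest from the circles for Cenpm over Cenph (4.63-fold) and overlap them for Spc25 over Spc24.

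Companion genes of the same machinery, listed by role, were read in the same fit, at an adjusted p under 0.05. In that fit 36.7% of all genes tested were lower and 36.7% higher, which is the background for each list below. Of 20 other kinetochore and centromere genes, 14 were lower and 2 higher (median log2 fold change −0.35). Hjurp, the chaperone that loads Cenpa, fell from 942, 911 and 922 normalized CPM in the control libraries to 611, 634 and 611 in the KD libraries (log2 fold change −0.58), and Oip5 (Mis18-beta), of the complex that licenses this loading, was called lower (−1.03), but not past 2-fold without control replicate 1 (−0.98) or without KD replicate 2 (−0.96). Nsl1, a subunit of the Mis12 complex, rose (0.64). Of 12 other checkpoint genes, 7 were lower and 5 higher, with Sgo1, which protects centromeric cohesion, lower (−0.62) and Trip13, the ATPase that disassembles the checkpoint complex, higher (0.72, from 65.7, 68.0 and 64.8 to 106, 112 and 108). Of 17 genes of the anaphase-promoting complex and its ubiquitin enzymes and inhibitor, 9 were lower and 3 higher, with Anapc2, its cullin subunit, at −0.88 and Anapc15 at 0.65.

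Of 24 other spindle assembly genes, 21 were lower and 1 higher, with a median of −0.43, close to that of the members. Kif2c (MCAK), a microtubule depolymerase of the centromere, was called lower (−1.05), and Haus2 was higher (0.29). Of 15 other cytokinesis genes, 12 were lower and 2 higher (median −0.29), with Kif20a at −0.69 and the formin Diaph3 at 0.64. Of 8 condensin genes, 6 were lower in edgeR's test, and the log2 fold changes of all 8 were below 0 (highest −0.04). The condensin I subunits Ncapd2 and Ncaph were called lower (−1.31 and −1.25). Of 13 cohesin genes and regulators, 6 were lower and 6 higher (median −0.01), beside 36.7% of all genes lower and 36.7% higher. Esco2, the acetyltransferase that locks cohesin in S phase, was called lower, from 74.2, 67.5 and 66.0 to 21.8, 25.6 and 23.8 (−1.54), while Stag1, a core subunit, was higher (0.49).

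Of 25 genes of mitotic entry and its transcription factors, 13 were lower and 8 higher (median −0.18), beside 36.7% of all genes lower and 36.7% higher. Cdkn1a, the CDK inhibitor p21, was called lower, from 281, 247 and 244 to 68.7, 64.0 and 64.9 (−1.97, adjusted p = 3.21e-28), and Ccnb1, the cyclin of mitotic entry, was higher (0.30). Of 35 DNA replication genes, 27 were lower and 5 higher (median −0.24). Chaf1a, a histone chaperone of the replication fork, was at −0.88, and Rrm2, a ribonucleotide reductase subunit, was called higher, from 136, 155 and 155 to 354, 352 and 371 (1.27). The differences between these lists and the members were not tested.

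**Figure D5:**
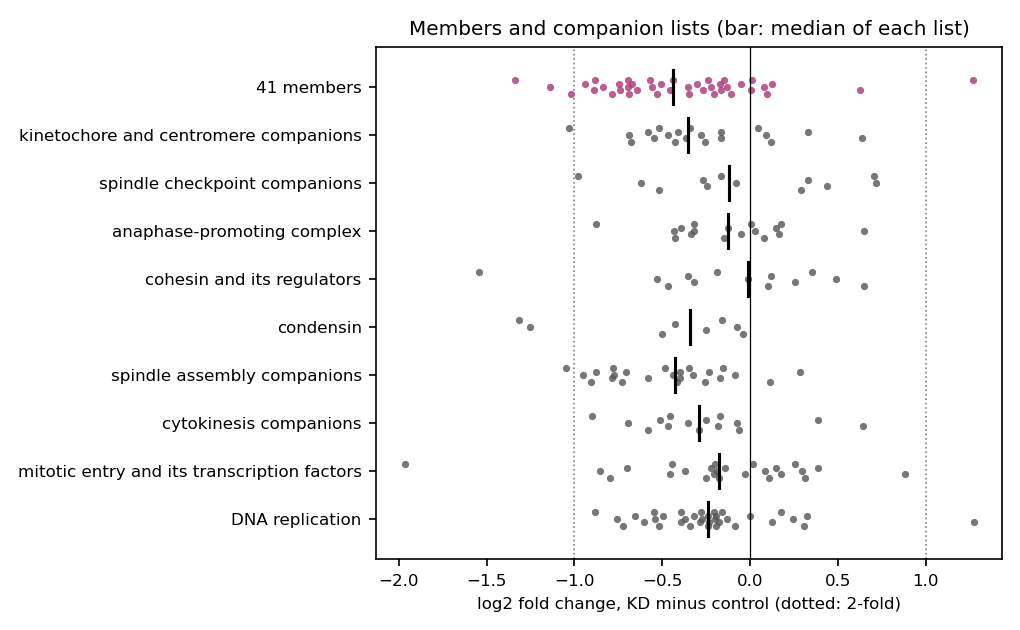
Log2 fold change, KD minus control, of the 41 members and of the tested genes of 9 companion lists, with each point a gene and each bar the median of a list; dotted lines mark 2-fold. The medians run from −0.44 for the members and −0.43 for the other spindle assembly genes to −0.01 for cohesin and its regulators.

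Some markers of other tissues differed between the groups alongside these genes. They are counted here as higher or lower where the 3 KD libraries did not overlap the 3 control libraries, which held for 37.8% of all genes tested on either side. By this count 10 of 10 lung epithelium markers were higher, with a summed level of 0.690 to 0.979 CPM in the control libraries and 67.9 to 80.6 in the KD libraries. Scgb1a1, a secretoglobin of airway club cells, had a mean of 43.6 CPM in the KD libraries and Sftpc, a surfactant protein of alveolar type II cells, had 14.7, and both were at 0 counts in every control library.

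Of 10 kidney tubule markers 8 were higher and 1 was lower (17.7 to 20.6 and 49.8 to 55.0 CPM), with Kap at 0 counts in every control library and a mean of 10.4 CPM in the KD libraries. Of 8 endothelial markers 4 were higher and 0 lower (79.8 to 85.7 and 194 to 208 CPM). This sum was carried by Cdh5, from 0.221 to 57.8 CPM, and Eng, from 82.5 to 141, while the means of Pecam1, Kdr, Tek, Emcn and Vwf were at 0.406 CPM or less in both groups. The leukocyte and stromal markers were by count near or below the share of all genes. That share covers tested genes only, whereas these lists also hold genes that failed the low-count filter, so it is a rough measure here. Of 13 leukocyte markers, 4 were higher and 1 was lower (72.2 to 86.1 and 144 to 160 CPM). Most of the change in the sum was S100a8, from 33.0 to 95.2 CPM. Called higher as well were S100a9 (70.2-fold), Lyz2 (8.25-fold) and Cd74 (3.52-fold), whose control means were 0.928 CPM or less. The marker counted as lower, Csf1r, had 3 counts or fewer in every library and was not tested. Ptprc was at 0.194 and 0.255 CPM and Cd3e at 0 counts in every library, which allows up to 3 counts. Of 10 stromal markers 2 were higher and 3 lower (175 to 194 and 77.5 to 80.9 CPM), a sum carried by Pdgfra, from 177 to 74.5 CPM. The part of these markers in the differences of the members was not tested.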

How the data were processed

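RNA-seq libraries labelled as PTX-resistant MDA-MB-231 BCSC were compared, 3 KD against 3 control. The authors trimmed adapters, mapped reads with HISAT2 and deposited raw counts per gene without normalization. The submitters' processing notes also name featureCounts, DESeq2 and hg38, whereas the paper's methods name hg19. The gene names are those of a mouse annotation. Neither its source and version nor strandedness of counting was found (not given in the sources used here). Counts of paralogs, overlapping and antisense genes may therefore be split or shared in unknown ways. The labels and the paper name different RNA and library kits.

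Counts were tested with edgeR 4.0.16 in R 4.3.3 (filterByExpr, minimum count 10 and minimum total 15, TMM normalization, quasi-likelihood test by group only, Benjamini-Hochberg adjustment over 13497 genes). The 95% intervals use the test's own degrees of freedom and a standard error taken from its F statistic. Fold changes over 2 and an adjusted p under 0.05 follow the paper. Members and lists were chosen with earlier results of these data known. All members are named, and values in every library are given for those past both thresholds and for the largest change each way in each role. Of each companion list the genes past both thresholds and the lowest adjusted p each way are named. Scripts were tested on simulated data. Of the columns of counts, 0 were not used. Depth varied little, from 36979221 to 38799331 counts. Alternatives were DESeq2 1.42.0, other scalings and filters, each replicate left out, a replicate block and a test against a fold change of 1.2. Leaving out each library for the count ratios of pairs was added after seeing the data.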

Additional observations from a re-analysis of the deposited data

How the results depend on the processing

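Over all alternatives but the test against a fold change of 1.2, 2 to 3 members were called lower and 1 higher. With that test as well, 23 to 34 were lower at an adjusted p under 0.05 and 2 to 3 were higher. For single members, again leaving out the test against a fold change of 1.2, there were 533 values under an alternative. Of these, 520 kept their direction and their side of each threshold, 3 lost a threshold, 2 gained one and 8 changed sign. All that changed sign were of Cdca8, Ect2 and Anln, which did not pass the test. Zwint and Pttg1 lost the adjusted p under 0.05, while Nusap1 lost only the 2-fold change. Bub3 and Cdca8 gained the adjusted p under 0.05. The causes were not tested. The lowest numbers of lower members came from the test against a fold change of 1.2, which by its construction asks for a larger change. Other scalings moved the median of all genes by −0.041 (upper quartile), −0.0196 (library size only) and 0.0068 (DESeq2's size factors) on the log2 scale.

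With upper quartile scaling the median log2 fold change was −0.481 for the members, −0.391 for the other kinetochore and centromere genes, −0.161 for the other checkpoint genes, −0.167 for the anaphase-promoting complex, −0.0530 for cohesin, −0.381 for condensin, −0.470 for the other spindle assembly genes, −0.329 for the other cytokinesis genes, −0.220 for mitotic entry and −0.282 for DNA replication. With library size only it was −0.370 for the kinetochore and centromere companions, −0.360 for condensin, −0.198 for mitotic entry and −0.261 for DNA replication. With each replicate left out in turn it ran from −0.466 to −0.357 for the members, from −0.372 to −0.321 for the kinetochore and centromere companions, from −0.149 to −0.0893 for the anaphase-promoting complex, from −0.0580 to 0.0236 for cohesin, from −0.358 to −0.316 for condensin, from −0.462 to −0.404 for spindle assembly, from −0.312 to −0.264 for cytokinesis, from −0.179 to −0.156 for mitotic entry and from −0.267 to −0.236 for DNA replication.

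The log2 fold change of Ect2 was −0.028 with upper quartile scaling, −0.0058 with library size only and from −0.0045 to 0.051 with each replicate left out. That of Anln was −0.034, −0.013 and from −0.011 to 0.027 in the same order, and that of Cdca8 ran from −0.11 to 0.0019 with each replicate left out.

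Replicates with the same number had correlations of their deviations of 0.042, −0.0147 and −0.0214 across 13497 genes. Those with different numbers had correlations from −0.0244 to 0.0391. These values show no pairing by number, but with 3 libraries in each group they cannot exclude one. A fit with the replicate number as a block gave 33 members lower and 2 higher, 3 called lower and 1 called higher, a median of −0.439, and 4906 genes lower and 4932 higher in all. Members had at least 269 counts in every library, so depth limits mainly the members of lowest count, such as Cenpk, Cenpp and Cenpm.

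With each library left out, the difference in log2 count ratio, KD minus control, ran from −0.97 to −0.91 for Ndc80 over Nuf2 and from −0.035 to 0.087 for Spc25 over Spc24.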
